A study of Rattus norvegicus with 10 samples.

Results

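Jejunal RNA from the rats given the upper doses of A-998679 was compared with that from the rats given the low dose or vehicle. A-998679 is an experimental compound directed at nicotinic acetylcholine receptors, and the study examined it as an activator of the aryl hydrocarbon receptor (AhR), a ligand-activated transcription factor that drives Cyp1a1. The comparison took all 10 arrays of the series, 1 rat per array. The upper pool held 5 arrays, 3 at 100 mg/kg/day and 2 at 200 mg/kg/day, and the lower pool held 5 arrays, 3 of vehicle (0.2% hydroxypropylmethylcellulose at 10 ml/kg/day) and 2 at 30 mg/kg/day. All rats were male Sprague Dawley, weighed 176 to 200 g per the labels and were dosed orally for 5 days, after which jejunum was flash frozen. Rat 3 of the 200 mg/kg group and rat 3 of the 30 mg/kg group were not analysed here. Values are log2 intensities of Affymetrix RAE230 2.0 probe sets. Of 29559 probe sets, the 17736 in the upper 60% by mean over all arrays were kept, with 4.89 both the lowest mean kept and the highest left out. Of these 17711 were tested, naming 10210 genes.

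The wall of the jejunum is layered. The mucosa carries absorptive enterocytes, mucus-secreting goblet cells, hormone-secreting enteroendocrine cells and resident lymphocytes, while the muscularis outside it holds smooth muscle and the nerve plexuses that set its rhythm. A frozen piece contains both, so the amount of a muscle or nerve transcript in its RNA follows the share of muscle wall as well as the expression in each cell. In bulk tissue such as this, fewer cells of a type and less RNA per cell cannot be told apart.

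The pieces carried brush border markers of small intestine at both dose levels. Anpep, a brush border peptidase, averaged 12.37 ± 0.19 in the upper pool and 12.32 ± 0.26 in the lower pool (SD, n = 5 each), and the sucrase gene Si averaged 12.14 ± 0.22 and 12.10 ± 0.13 in the same order of pools. None of the 20 brush border genes tested passed the test, while 18 lay above 0, with a median of 0.15. Over 6 genes of distal intestine the mean difference from the lower-pool mean varied between arrays. It ran from -0.16 to 0.81 in the upper pool and from -0.76 to 1.05 in the lower pool, with vehicle rat 1 highest. The place of each piece along the intestine was not tested. Albumin (Alb), a liver transcript, ranged widely within both pools, at 8.75 ± 1.93 in the upper pool and 9.61 ± 1.62 in the lower pool. Array medians lay between 5.86 and 5.90, and 11.0% to 11.3% of probe sets were blank on each array.

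The array labelled vehicle rat 1 stood apart from the other lower arrays and lay with the upper doses, against its label, on most probe sets called without it. Whether the label is right was not tested, so the label was kept and the results that rest on this array are given with and without it. The smooth muscle score, the mean over 20 smooth muscle genes of the difference from the lower-pool mean, was -0.92, -0.95 and -0.95 at 100 mg/kg and -0.57 and -0.89 at 200 mg/kg. It was -0.54, 0.13 and 0.13 in vehicle rats 1 to 3 and 0.29 and -0.01 at 30 mg/kg. The lowest lower array, vehicle rat 1, lay just above the highest upper array, 200 mg/kg rat 1, so the pools were close to overlapping. The score differed by -0.86 between the pools, and by -0.99 without vehicle rat 1. It followed the first principal component, which held 41.6% of the variance over all arrays (Pearson r = -0.94 over 10 arrays, as a description, since the score's genes are also among those of the component).

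**Figure D1:**
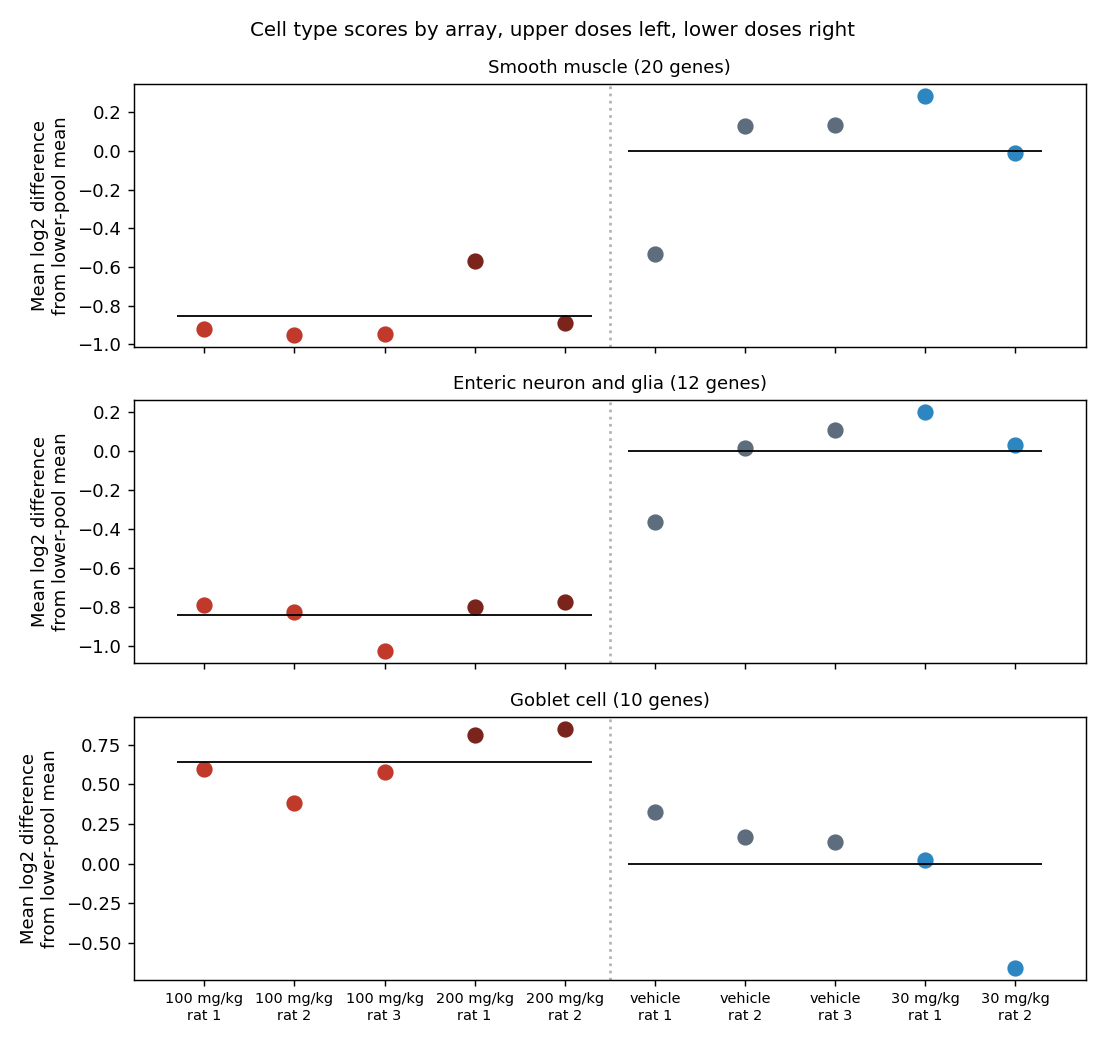
Scores of smooth muscle, enteric neuron and glia, and goblet cell genes on each array, as the mean log2 difference from the lower-pool mean; points are rats, lines are pool means, and the upper doses stand left of the dotted line. The smooth muscle and nerve scores were lower on every upper array than on every lower array, with vehicle rat 1 the lowest of the lower arrays at -0.54 and -0.36.

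The upper and lower pools differed in 883 probe sets at an adjusted p of up to 0.05 (limma, Benjamini-Hochberg over all 17711). Of all tested, 1.84% were called higher (326 probe sets, 256 named genes) and 3.14% were called lower (557 probe sets, 383 named genes). The median size was 0.76 among those higher and 0.79 among those lower, and 75 were at least 2-fold higher and 152 at least 2-fold lower. The median difference over all probe sets was 0.01. Of 17465 probe sets with a value on every array, 3.05% (533) had every upper array above every lower array and 4.01% (701) had every upper array below. The number of calls rested on single arrays. Without vehicle rat 1 there were 3643 calls, 10.3% of those tested higher (1816) and 10.3% lower (1827), and they included all 883. Without vehicle rat 2 or without 30 mg/kg rat 1 none was called by limma, although 3954 and 3646 probe sets had an unadjusted p of up to 0.05, against 4772 with all arrays. None was called either with vehicle rats alone as the lower pool or with no filter on intensity (3501 and 5601 at an unadjusted p of up to 0.05).

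Smooth muscle genes had the largest share of calls among the cell type lists. Of 20 tested, 15 were called lower, where 3.14% of all probe sets were, and none higher, with a median difference of -0.92 against 0.01 over all probe sets. The count was 19 without vehicle rat 1, where 10.3% of all were called in each direction, and the median was -1.06. Lmod1, which nucleates actin filaments in smooth muscle, was measured at 7.09, 6.92 and 6.77 at 100 mg/kg and 7.23 and 7.21 at 200 mg/kg. In the lower pool it was 7.77, 8.57 and 8.78 in vehicle rats and 8.82 and 8.47 at 30 mg/kg. Every upper array lay below every lower array, and the difference was -1.44 ± 0.19 (SE, adjusted p = 0.0172). Myl9, the regulatory light chain of smooth muscle myosin, was 9.82, 9.92, 9.94, 10.43 and 9.83 in the upper pool, against 10.44, 11.30, 11.46, 11.54 and 11.23 in the lower pool. The pools nearly met at 200 mg/kg rat 1 and vehicle rat 1, and the difference was -1.2 ± 0.21 on the log2 scale (SE, adjusted p = 0.0195).

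Of the 20 genes, 19 lay below 0. Flna, an actin crosslinker, fell by 1.09, and Pdlim7, a scaffold of actin bundles, fell by 0.93 on the log2 scale. A second Pdlim7 probe set stood at -0.06 and did not pass the test. Smooth muscle myosin Myh11 was at 10.76 ± 0.13 in the upper pool and 11.57 ± 0.31 in the lower pool (SD, n = 5 each, adjusted p = 0.0204). Acta2, smooth muscle actin, was at 9.93 ± 0.10 and 10.58 ± 0.34 in the upper and lower pools (adjusted p = 0.0419). Actg2, the enteric actin, did not pass the test at -0.62 (adjusted p = 0.0547). Creatine kinase Ckb, which epithelium also makes, was the one list member above 0, at 0.23.

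Of the ion channel and calcium handling genes of muscle, 7 of 13 were called lower and none higher, with a median of -0.69, beside 3.14% of all probe sets called lower (8 and -0.71 without vehicle rat 1, beside 10.3% of all). Kcnma1, the large-conductance potassium channel, fell by 1.06 (adjusted p = 0.0212). Pln, phospholamban, the brake of the sarcoplasmic calcium pump, was 5.84, 5.83, 5.89, 6.81 and 6.39 at the upper doses, against 6.78, 7.46, 7.32, 7.68 and 7.51 at the lower doses. Its values overlapped at 1 array of each pool, again 200 mg/kg rat 1 and vehicle rat 1. Jph2, which ties sarcoplasmic reticulum to the cell membrane, fell by 0.81, and Gucy1a1, a subunit of the nitric oxide receptor, fell by 0.91, whereas its second probe set, with vehicle rat 3 at 0.06, gave 0.51 and did not pass the test. A second Pln probe set fell by 1.51.

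The serum response factor gene Srf, the transcription factor that drives many contractile genes through the CArG box, was itself lower by 0.77 ± 0.14 (SE, adjusted p = 0.0212). A second Srf probe set was at 0.14 and did not pass the test. The CArG box was looked for by name on both strands in the 250 bases before the RefSeq start (build GRCr8) of each gene with a promoter in the reference table. It was present in 8 of 302 matched genes called lower (2.65%), in 2 of 208 called higher (0.962%), in 114 of 8532 genes tested (1.34%) and in 1.5% of all 27457 promoters. None of the 16 matched smooth muscle genes held it in this window. The boxes of 3 of the 8 genes are shown because Srf holds a pair of them and because Fbxl22 and Svil are muscle genes, a choice made after their values were seen. Capitals mark the 10 bases of the box, and each line runs 5′ to 3′ along the gene's strand.
Srf, first box, chr9:21923985-21924014, plus strand: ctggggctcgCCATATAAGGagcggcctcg
Srf, second box, chr9:21924005-21924034, plus strand: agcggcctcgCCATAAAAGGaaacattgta
Fbxl22, chr8:75971899-75971928, minus strand: aaaagaaatcCCTTTTAAGGagaacttgta
Svil, chr17:57462661-57462680, minus strand: tgctatcaggCCATAAAAGG

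The pair in Srf lay 81 to 72 and 61 to 52 bases before the start. Fbxl22, which encodes a muscle F-box protein, fell by 1.21 (adjusted p = 0.0204) and Svil, which encodes the actin-binding protein supervillin, fell by 0.52 (adjusted p = 0.0224). These are matches of letters and carry no statement on binding.

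Of 12 genes of enteric neurons and glia tested, 6 were called lower and none higher, with a median of -0.78, while 3.14% of all probe sets were called lower (7 and -0.86 without vehicle rat 1, with 10.3% of all). Snap25, a protein of synaptic vesicle fusion, was 5.41, 5.39, 4.71, 5.27 and 5.43 in the upper pool, against 5.88, 6.84, 7.08, 7.57 and 6.98 in the lower pool. All upper values lay below all lower values, and the difference was -1.63 ± 0.28 (SE, adjusted p = 0.0192). Uchl1, a ubiquitin hydrolase abundant in neurons, was 4.95, 3.00, 4.02, 3.47 and 4.97 at the upper doses, against 5.42, 6.28, 6.36, 6.53 and 6.0 at the lower doses. The upper-pool mean of 4.08 was under the lowest mean kept by the filter, 4.89, so Uchl1 was tested only through the lower pool, where it was high, and its difference of -2.04 is a description. Tubb3, Nefl and Stmn2, cytoskeletal genes of neurons, fell by 0.92, 0.80 and 0.74, whereas the glial gene Gfap was at 0.04 and did not pass the test. A second Tubb3 probe set stood at 0.04. Secretogranin genes Scg5 and Scg2, made by neurons and by enteroendocrine cells alike, fell by 0.84 and 0.97, while 10 of the 12 enteroendocrine genes tested lay above 0.

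Connective tissue and fat transcripts had fewer calls. Of 18 fibroblast and matrix genes tested, 4 were called lower and none higher, with a median of -0.56, against 3.14% of all probe sets called lower. Leaving out vehicle rat 1 gave 9 and -0.67, against 10.3% of all. The 4 were the matrix proteoglycans Dcn (-0.78) and Lum (-0.86) and the adhesive proteins Fn1 (-0.88) and Postn (-0.74). None of the 6 adipose genes passed the test, and 4 were called lower without vehicle rat 1 (median -1.54), where 10.3% of all probe sets were. Adiponectin (Adipoq) was 4.59, 3.93, 5.52, 5.01 and 4.77 in the upper pool, against 5.92, 5.61, 6.65, 6.54 and 8.57 in the lower pool, where 30 mg/kg rat 2 was highest. The pools did not overlap, and the difference was -1.89 ± 0.50 (SE, adjusted p = 0.0558). The upper-pool mean of Adipoq, 4.76, was under the lowest mean kept, 4.89. Adipoq was thus tested only through the lower pool, where it was high, and its values are a description.

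The genes with the largest falls spanned these layers and others. Rgma, a guidance molecule and co-receptor for bone morphogenetic proteins, was 5.20, 5.02, 5.29, 4.58 and 5.48 in the upper pool, against 6.34, 7.13, 7.11, 7.52 and 7.10 in the lower pool (-1.92 ± 0.22, adjusted p = 0.0172). Kcnip2, a subunit of voltage-gated potassium channels, was 5.59, 5.70, 5.33, 5.65 and 5.31 at the upper doses, against 6.51, 7.57, 7.45, 7.78 and 7.36 at the lower doses (-1.82 ± 0.21, adjusted p = 0.0172). In both, vehicle rat 1 was the lowest lower array, yet no upper array reached it. Pde4a, a cyclic AMP phosphodiesterase, fell by 1.81, and Mgll, which cleaves monoacylglycerol, fell by 1.68. Osbpl5, a lipid transfer protein, Popdc2, a cyclic AMP-binding protein of muscle, Speg, a muscle kinase, and the chaperone Hspb8 fell by 1.91, 1.61, 1.57 and 1.48. Plin4, a lipid droplet protein, Sncg, a synuclein of neurons, Poldip3, Nipsnap2 and Trpc2 fell by 1.56, 1.55, 1.57, 1.52 and 1.47. Osbpl5, Mgll, Poldip3 and Speg had upper-pool means of 4.19, 4.55, 4.73 and 4.63, under the lowest mean kept, and passed the filter only through the lower pool. Of all called, 65 lower and 25 higher had the mean of 1 pool under the lowest mean kept, and the sizes of their differences are a description.

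The genes with the largest rises had varied roles. Mmp10, a matrix metalloproteinase, was 7.64, 7.19 and 7.46 at 100 mg/kg and 6.09 and 7.11 at 200 mg/kg. It was 3.82, 3.48 and 5.59 in vehicle rats and 4.64 and 2.38 at 30 mg/kg. The pools were clear of each other, and the difference was 3.11 ± 0.53 on the log2 scale (SE, adjusted p = 0.0192). The lower-pool mean of 3.98 was under the lowest mean kept, so Mmp10 passed the filter only through the upper pool and the size is a description. Papss2, which makes the sulfate donor used to sulfate mucins, was 10.96, 10.33, 10.77, 11.17 and 11.72 at the upper doses, against 9.98, 9.90, 8.83, 9.79 and 9.13 at the lower doses (1.46 ± 0.29, adjusted p = 0.0250). Fut2, which adds terminal fucose to mucosal glycans, rose by 1.41, Galnt1, which starts mucin-type O-glycans, by 1.37, and Uggt1, a folding sensor of glycoproteins in the endoplasmic reticulum, by 1.22. Other probe sets were not called, at 0.51 for Papss2 and at 0.40 and 0.36 for Galnt1. Bpnt2, a Golgi phosphatase that clears the by-product of sulfation, rose by 0.69 (adjusted p = 0.0172), with its other probe sets at 0.67, 1.17 and -0.01.

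Carmil1, a regulator of actin capping with a lower-pool mean of 4.22, under the lowest mean kept, Tm9sf3, a membrane protein of the secretory route, and Itga6, a laminin-binding integrin of epithelium, rose by 1.67, 1.46 and 1.38. The kinase Slk, the caspase inhibitor Xiap, the deubiquitinase Usp49, the C2-domain gene Tc2n, the clathrin adaptor Clint1 and topoisomerase Top1 rose by 1.36, 1.36, 1.24, 1.24, 1.23 and 1.2. Of the 30 genes of largest difference in either direction, 15 had another tested probe set. In each of the 15 every other probe set had the same sign, but only 3 had another one called, and in 6 another was under 0.2 in size.

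**Figure D2:**
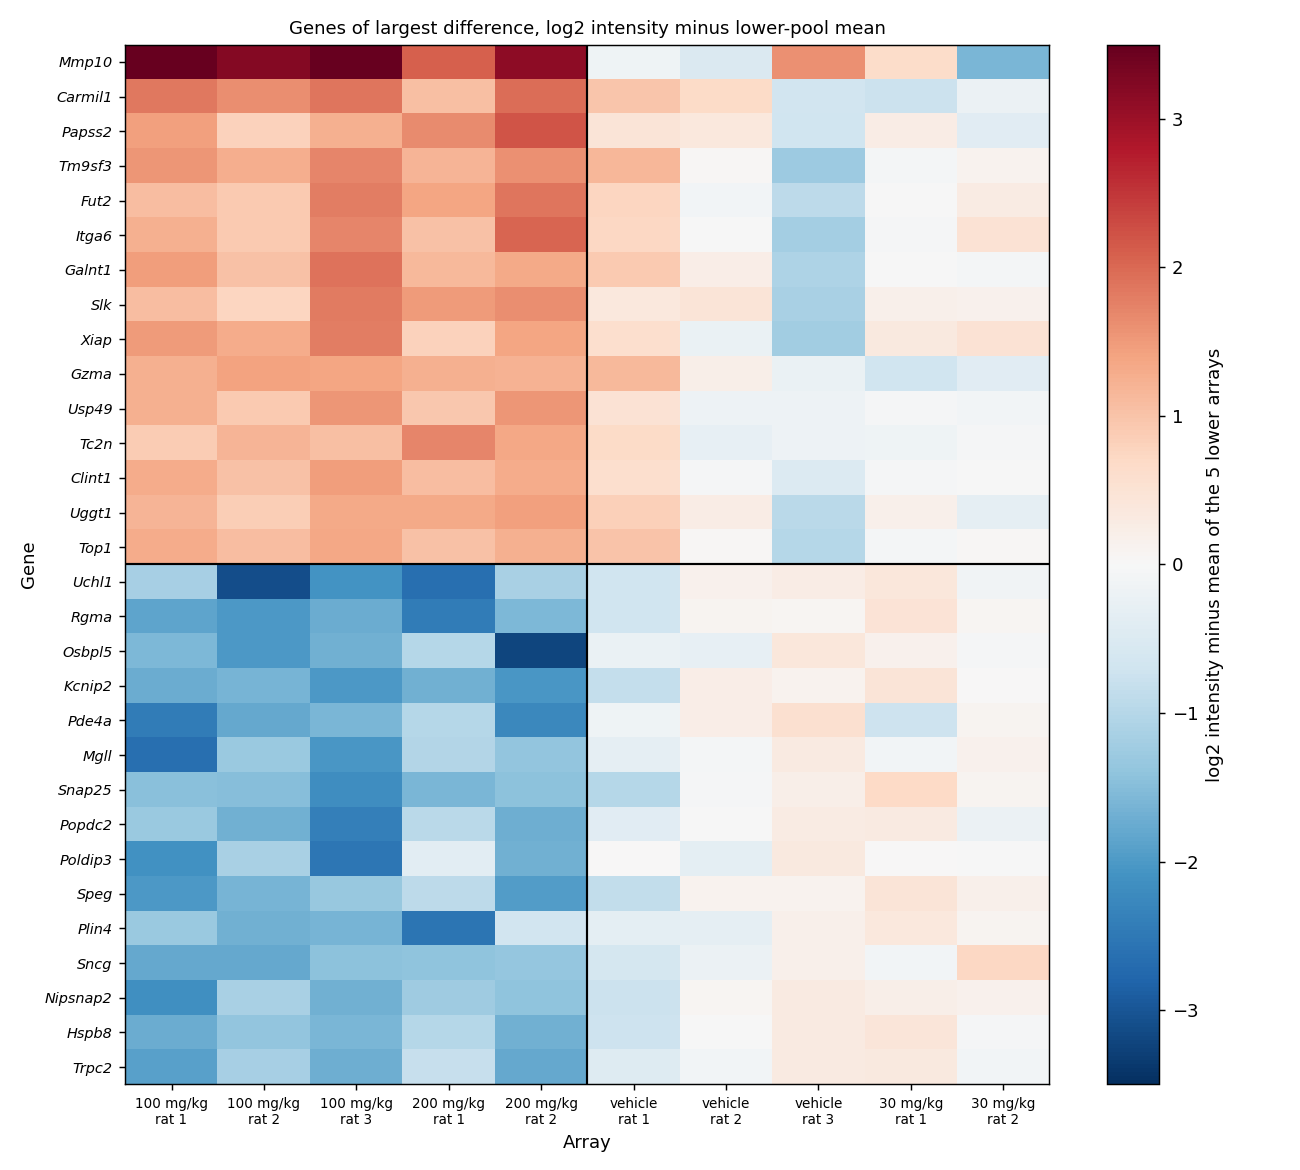
Log2 intensity minus the lower-pool mean for the 15 genes of largest rise (top block) and the 15 of largest fall (bottom block), one column per array with the upper doses left of the vertical line. Mmp10 stood out among the rises at 3.11, and vehicle rat 1 (first column right of the line) was shifted towards the upper doses in many rows, such as Gzma at 7.36 on the log2 intensity scale.

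Of 10 goblet cell genes of the mucosa, 3 were called higher and none lower, with a median of 0.75, where 1.84% of all probe sets were called higher (6 and 0.83 without vehicle rat 1, where 10.3% of all were). Zg16, a lectin of goblet cell granules, lay between 11.81 and 12.16 in the upper pool, against 11.63, 11.08, 11.11, 10.90 and 10.18 in the lower pool (1.04 ± 0.22, adjusted p = 0.0318). The pools did not overlap, and 30 mg/kg rat 2 was lowest. The trefoil peptide gene Tff3 rose by 0.76 and Bcas1 by 0.87. Fcgbp, a mucus protein, was at 0.78 without passing the test (adjusted p = 0.0549), as was the main intestinal mucin Muc2 at 0.50 (adjusted p = 0.0709).

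Some lymphocyte genes rose. Of 7 T and NK cell genes, 2 were called higher and none lower, with a median of 0.64, against 1.84% of all probe sets called higher. The count was 5 and the median 0.81 without vehicle rat 1, against 10.3% of all. Gzma, a granzyme of cytotoxic lymphocytes, was 7.49, 7.65, 7.62, 7.48 and 7.46 at the upper doses, against 7.36, 6.45, 6.01, 5.54 and 5.84 at the lower doses (1.30 ± 0.28, adjusted p = 0.0345). The upper arrays were nearly alike and vehicle rat 1 was just below them. Gzmb, another granzyme, rose by 1.44 with vehicle rat 1 above 2 of the upper arrays, and the chemokine Ccl5 was at 1.29 (adjusted p = 0.0536). Of the 7 genes 6 lay above 0 and 1 below. The one below was Cd3g, of the T cell receptor complex, at -0.48, and it did not pass the test (adjusted p = 0.168). Cd3e and Lck, both at 0.46, did not pass it either. Of 7 B and plasma cell genes, 1 was called higher, beside 1.84% of all probe sets, with a median over the list of 0.78. The called gene was the immunoglobulin joining chain Jchain, which rose by 1.51. Without vehicle rat 1 the count was 2 and the median 1.05, beside 10.3% of all.

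Other immune lists had no call in the pooled test and larger medians at 100 than at 200 mg/kg, a difference that was not tested for the lists. With 100 mg/kg alone against the lower doses, 2 of 4 mast cell genes were called. So were 3 of 9 macrophage and granulocyte and 3 of 8 class II histocompatibility genes, beside 1.76% of all probe sets. With 200 mg/kg alone none was called in these lists, beside 0.0509% of all. Without vehicle rat 1, 2 class II histocompatibility genes, 1 mast cell gene and 0 macrophage and granulocyte genes were called higher, with medians of 0.76, 1.01 and 0.62, and 10.3% of all probe sets were. Over 4 mast cell genes the median difference from the lower pool was 1.25 for 100 mg/kg and 0.38 for 200 mg/kg. Over 8 genes of major histocompatibility complex class II it was 1.03 and -0.02, and over 9 macrophage and granulocyte genes 0.85 and -0.07, at 100 and 200 mg/kg. Mcpt1, a mast cell protease, read 9.48, 9.66 and 9.56 under 100 mg/kg, with 6.88 and 7.71 under 200 mg/kg, against 6.24, 6.55 and 8.31 in vehicle rats and 6.55 and 5.73 at 30 mg/kg. The difference of 200 from 100 mg/kg was -2.27 ± 0.60 and did not pass the test (adjusted p = 0.445).

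**Figure D3:**
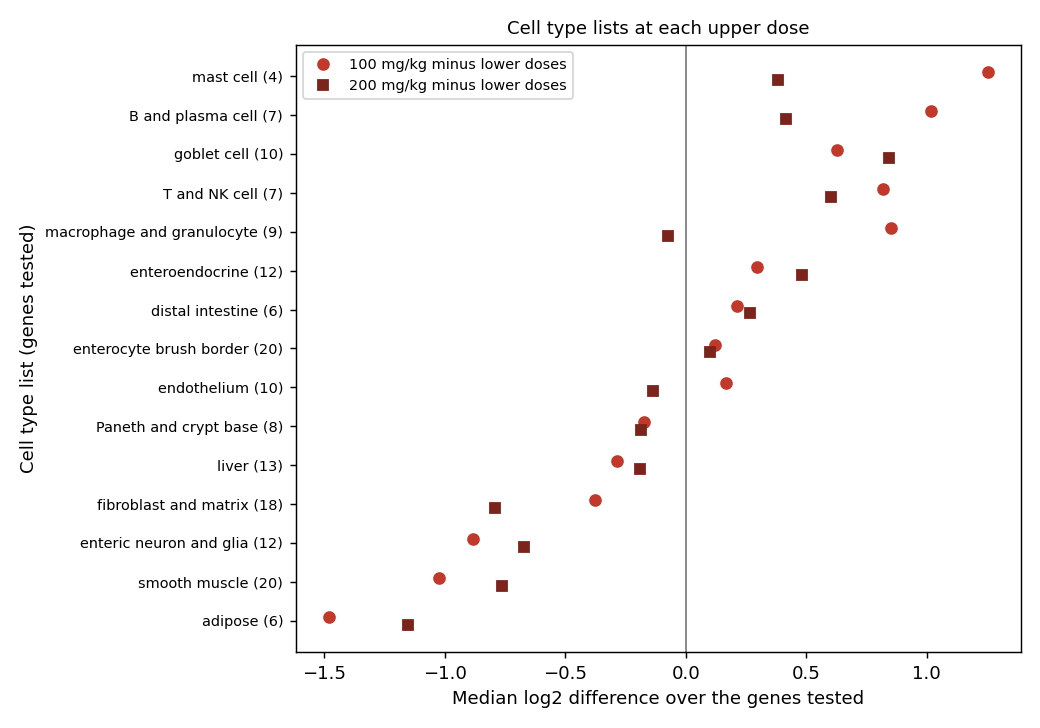
Median log2 difference from the 5 lower arrays over the genes tested of each cell type list with at least 4 of them, at 100 mg/kg (circles) and 200 mg/kg (squares). Smooth muscle (-1.02 and -0.76) and enteric neuron and glia (-0.89 and -0.67) lay below 0 at both doses and goblet cells (0.63 and 0.84) above 0 at both, while macrophage genes were apart by dose (0.85 and -0.07). Both doses share the lower arrays.

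Of 6 AhR targets tested, none was called higher and 1 was called lower, where 1.84% and 3.14% of all probe sets were. Without vehicle rat 1, 1 was called in each direction, where 10.3% of all were, with a median of 0.02. Cyp1a1, the classical target, was 9.02, 10.21 and 8.57 at 100 mg/kg and 5.86 with a blank at 200 mg/kg. It was 7.09, 7.66 and 8.71 in vehicle rats and 10.31 and 8.71 at 30 mg/kg. The highest array was of the lower pool and the lowest of the upper pool, and the pools differed by -0.08 ± 0.87 (SE, adjusted p = 0.962). Cyp1b1, another AhR-driven cytochrome P450, which stroma makes as well, was 7.23, 7.40, 7.11, 7.10 and 6.93 in the upper pool, against 7.56, 7.73, 7.94, 7.97 and 7.81 in the lower pool, and fell by 0.65 (adjusted p = 0.0204). Ahr itself was at 1.22 ± 0.32 (adjusted p = 0.0558, with 1 blank in the lower pool), and without vehicle rat 1 it was called higher at 1.36 (adjusted p = 0.0241). The lower-pool mean of Ahr, 4.3, was under the lowest mean kept, 4.89. Ahr was thus tested only through the upper pool, where it was high, and its values are a description. Tiparp was at 0.39 and 0.15 on its 2 probe sets, the repressor Ahrr at -0.16 and the quinone reductase Nqo1 at 0.27, none past the test, and Cyp1a2 was below the filter on intensity. The AhR core motif GCGTG was present, on either strand, before 4 of 5 matched genes of this list, against 44.5% of genes tested and 27.2% of all promoters.

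Of 13 targets of Nrf2, the factor that answers electrophiles, 1 was called higher, where 1.84% of all probe sets were. Of the 13, 12 lay above 0, against 51.2% of all probe sets, with a median of 0.33. The score of these genes ran from 0.30 to 0.69 on the upper arrays and from -0.13 to 0.18 on the lower arrays. Without vehicle rat 1, 4 were called higher (median 0.34), beside 10.3% of all. The called gene was Srxn1, sulfiredoxin, at 7.80, 8.22, 8.39, 7.94 and 8.37 in the upper pool, against 7.04, 6.46, 7.14, 6.65 and 7.46 in the lower pool. The pools did not overlap and its second probe set was at 1.24 beside 1.19. Gclm, which limits glutathione synthesis, was at 0.62 (adjusted p = 0.0514). Of 17 conjugating enzymes and esterases 13 lay above 0 (median 0.39), and of 11 transporters of the ABC family 9 did (median 0.29). Of the 17, 1 was called higher and 1 lower, and of the 11, 1 was called lower, beside 1.84% and 3.14% of all probe sets. The carboxylesterase Ces2c rose by 1.08 and the glutathione transferase Gsta1 fell by 1.06. The efflux pumps Abcc3 and Abcc2 were at 1.53 (adjusted p = 0.0614) and 0.80 (adjusted p = 0.192), and Abcb6, a porphyrin transporter, fell by 0.56. In other lists 1 of 21 fat oxidation genes and 1 of 18 cholesterol synthesis genes were called higher, beside 1.84% of all probe sets. Of 20 cell cycle genes 1 was called lower, beside 3.14% of all. They were Etfdh, higher by 1.15, Sc5d, higher by 0.71 (its 2 other probe sets were at -0.06 and -0.08), and the replication gene Mcm6, lower by 0.83.

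The changes were set side by side at the 2 upper doses, each against the same 5 lower arrays. Taken alone, 100 mg/kg had 311 calls (1.76% of those tested, 96 higher and 215 lower), and 200 mg/kg, with 2 arrays, had 9 (0.0509%, 3 higher and 6 lower). Without vehicle rat 1 these were 3136 and 1173. Among the 326 probe sets called higher with the doses pooled, the median difference from the lower doses was 0.76 for 100 mg/kg and 0.73 for 200 mg/kg. Among the 557 called lower it was -0.79 for 100 mg/kg and -0.76 for 200 mg/kg. None of the 883 was among those called between the 2 doses, but the pooled test favours probe sets that are alike at both doses. The doses were also compared through differences that share no array. Across 17677 probe sets, the difference of 100 mg/kg from vehicle had r = 0.53 with that of 200 from 30 mg/kg (rho = 0.52), and the difference of 100 from 30 mg/kg had r = 0.46 with that of 200 mg/kg from vehicle, as a description, since genes are not independent replicates. Of 1522 probe sets higher at 100 mg/kg than in vehicle at an unadjusted p of up to 0.05, 86.9% were also higher at 200 than at 30 mg/kg, against 50.8% of all, and of 1664 lower 87.4% were also lower, against 49.2% of all. The 30 mg/kg and vehicle rats differed in 2 probe sets (0.0113%).

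Few probe sets were called between the upper doses. Between 200 and 100 mg/kg 8 probe sets were called (0.0452%), 5 higher and 3 lower, and 1092 had an unadjusted p of up to 0.05 (limma). With 2 arrays against 3, the lack of a call does not show that the doses were alike. Gpx2, the glutathione peroxidase of the gut, was 12.06 and 11.43 at 200 mg/kg, against 9.84, 9.89 and 9.90 at 100 mg/kg, and the lower doses lay between at 10.75, 10.72, 10.80, 10.46 and 10.40. Its difference of 200 from 100 mg/kg was 1.87 ± 0.20 (SE, adjusted p = 0.0326), and no upper array lay within the range of the lower ones. Reg1a, a secreted protein of the regenerating family, was 9.78 and 9.46 at 200 mg/kg, against 7.89, 6.66 and 7.18 at 100 mg/kg (adjusted p = 0.0387), with the lower arrays between 6.09 and 6.52. Its relative Reg3g was 12.51 and 12.87 at 200 mg/kg, against 10.46, 9.27 and 9.28 at 100 mg/kg, without passing the test (adjusted p = 0.190). The amino acid transporter Slc16a10 was higher by 1.82, while the coenzyme A carrier Slc25a42, the sorting nexin Snx33 and the macrophage gene Mpeg1 were lower by 2.23, 1.74 and 1.93 at 200 than at 100 mg/kg. The kinases Map3k20 and Dstyk were at 1.36 and -1.69 and were not called (adjusted p = 0.134 and 0.0529).

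The relation of the pooled differences to muscle wall was then measured. With the smooth muscle score as a covariate in the fit, no probe set was called (0% of those tested; lowest adjusted p = 0.132, and 1578 at an unadjusted p of up to 0.05, against 4772 without the score). This covariate was closely tied to the pools (r = -0.88 between score and pool over 10 arrays), and the median standard error was 2.01 times that without it. The differences also shrank. Over the 326 called higher the median difference was 0.25 with the score, a median of 33.6% of each difference kept, and over the 557 called lower it was -0.23, with 32.6% kept. Of these, 50 and 75 turned their sign, and 70 and 98 kept at least 75% of the difference. At equal pool the fitted slope on the score was above 0 in 94.4% of probe sets called lower and in 9.82% of those called higher, against 49.4% of all tested. Vehicle rat 1 and 200 mg/kg rat 1 lay furthest from their own pool's mean score.

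**Figure D4:**
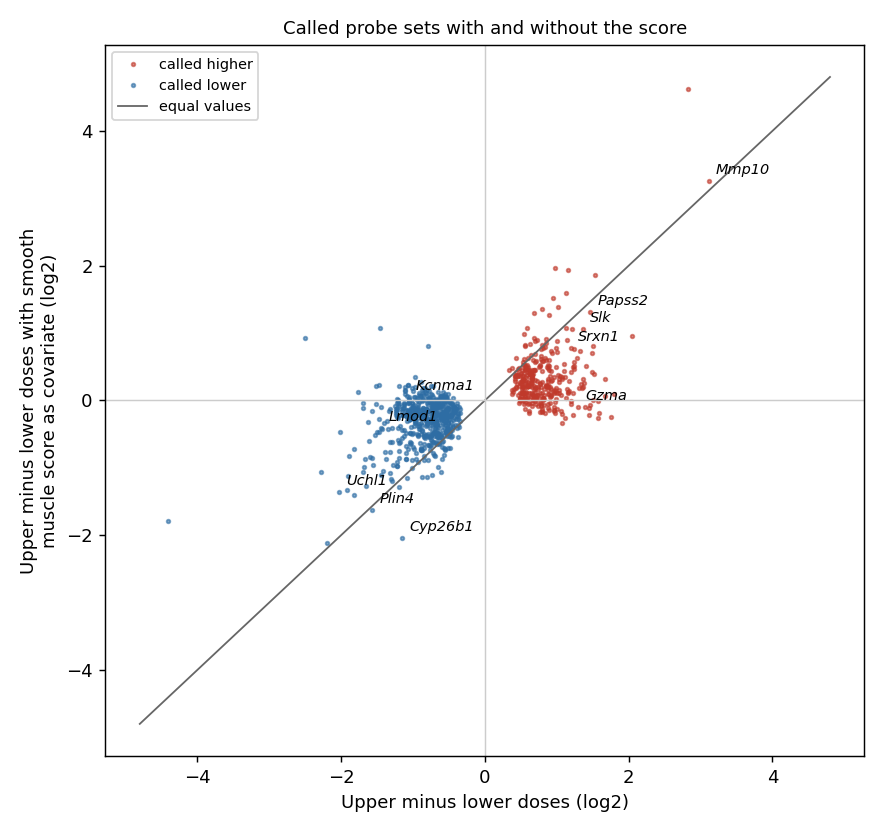
Difference of upper from lower doses (log2) for the 883 called probe sets, without the smooth muscle score (horizontal) and with it as a covariate (vertical); red points were called higher and blue lower, and the line marks equal values. Most points lay nearer 0 with the score, with a median of 33.6% and 32.6% kept, whereas Mmp10 (3.25) and Plin4 (-1.63) stayed on the line.

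The part of the difference left with the score varied between genes, none of which was called in that fit. With a median standard error 2.01 times larger, the single values are a description and do not sort the genes. Muscle genes lost much or all of their difference (Lmod1 -0.41, Myl9 -0.02, Kcnma1 0.05), and Lmod1 and Myl9 are themselves part of the score. So did Gzma (-0.10), Tm9sf3 (-0.07), Top1 (-0.05) and Carmil1 (0.07), none of which marks muscle. Mmp10 kept 3.25, Papss2 1.31, Slk 1.05, Plin4 -1.63, Uchl1 -1.37 and Pde4a -1.40. Among probe sets called in the pooled comparison, those with the smallest p in this fit, none called in it, were on the higher side Dhx36, a helicase of folded nucleic acids (1.30), Ube3al1 (1.07), Zfp691 (0.99), Fam177a1 (0.92), the spectrin Sptbn1 (1.36), the kinase Taok3 (1.52), Bpnt2 (0.70) and the acute-phase gene Saa3 (0.45). In Dhx36, Sptbn1 and Taok3 the difference grew with the score. Without the score, the other probe sets were not called, at -0.12, 0.31 and -0.01 for Dhx36, 0.30 and -0.11 for Sptbn1 and -0.09 for Taok3. In the fit with the score and without vehicle rat 1, chosen after seeing the data, Ube3al1 and Sptbn1 turned to -0.05 and -0.11.

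On the lower side of the pooled calls they were Cyp26b1, Pdk2, Ccnjl, Cav1, Nav2, Krt12, Tlcd4 and Nfic. Cyp26b1, which degrades retinoic acid, was 4.96, 5.27, 5.33, 4.31 and 4.84 in the upper pool, against 6.57, 6.27, 6.53, 5.66 and 5.42 in the lower pool, and vehicle rat 1 was its highest array. Its difference was -1.15 without the score and -2.04 with it. Cav1, the main protein of caveolae, was 7.55, 7.53, 7.60, 7.26 and 7.54 at the upper doses, against 8.23, 8.51, 8.20, 8.46 and 8.69 at the lower doses, -0.93 without and -0.91 with the score, and its 2 other probe sets were at -0.60 and -0.75. Pdk2, which switches off pyruvate dehydrogenase, was at -0.61 and -1.06, the cyclin Ccnjl at -1.08 and -1.16, Nav2 at -0.66 and -0.99, the keratin Krt12 at -0.45 and -0.53, and Tlcd4 at -1.19 and -1.29, without and with the score. Second probe sets of Nav2 and Tlcd4 were on the other side of 0, at 0.45 and 0.12. Nfic had a value on only 1 of the upper arrays, and its -4.41 rests on that array.

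Over all tested probe sets, called or not in the pooled comparison, the genes of smallest p with the score were others, and none was called (adjusted p = 0.132 for each of the 8 higher ones and 0.132 to 0.185 for the 8 lower ones). On the higher side they were Chic1 (2.64 with the score and 0.07 without it), Adpgk, a glucokinase that uses ADP (1.71 and -0.38), Abcc1, an efflux pump (1.79 and 0.55), the poly(A) polymerase Papola (1.23 and 0.37), the nuclear corepressor Ncor1 (1.73 and 0.24), Fubp3 (1.98 and 0.72), the RNA polymerase III subunit Polr3f (1.15 and 0.10) and Dhx36 (1.30 and 0.68). Vehicle rat 1 was the lowest lower array in each of these 8. In Adpgk the upper arrays lay between 5.12 and 6.08, against 4.37 in vehicle rat 1 and 5.93 to 6.30 on the other lower arrays, and without vehicle rat 1 and without the score it was called lower, at -0.73 (adjusted p = 0.0292).

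On the lower side they were RT1-CE10 (-2.04 with the score and -0.39 without it) and RT1-CE5 (-2.50 and 0.17), class I histocompatibility genes whose near-identical copies can share probes, Cryz, a quinone reductase (-0.87 and -0.09), Mad2l2 (-0.98 and -0.10), Brpf3 (-0.82 and -0.24), the GTPase Rhog (-0.79 and 0.09), the ubiquitin ligase Mylip (-1.22 and 0.02) and Nfic (-1.80 and -4.41). Vehicle rat 1 was the highest lower array in each of these but Nfic, where it was the lowest. Of the probe sets listed for these 16 genes, those of Dhx36 and Nfic were called without the score. Other probe sets of Papola (0.64) and Ncor1 (0.56) were also called higher without the score. Their remaining probe sets, at 0.88 for Papola and 0.22 for Ncor1, were not called. A second RT1-CE5 probe set stood at -0.18 and a second Fubp3 probe set at -0.35 without the score.

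A vehicle rat gave a reading of the pattern that needed no covariate. The 3643 probe sets called without vehicle rat 1 were placed on a scale where 0% is the mean of the other 4 lower arrays and 100% is the upper-pool mean. Vehicle rat 1, which had not taken part in those calls, stood at a median of 88.3% over the 1815 higher ones with a value and 77.5% over the 1818 lower ones, and 68.1% and 52.3% of them were past 75%. It lay on the upper-dose side of the other lower arrays in 97.0% of those called higher and 97.0% of those called lower, against 80.7% and 77.3% of all probe sets with a difference of that sign. Over the 883 probe sets of smallest p found without the array in question, each array was read in the same way. The upper arrays stood at 94.4%, 80.0% and 106% at 100 mg/kg and 62.9% and 95.6% at 200 mg/kg. Vehicle rat 1 stood at 78.0%, against 6.03% and -31.2% for vehicle rats 2 and 3 and -18.0% and 11.9% for the 30 mg/kg rats.

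**Figure D5:**
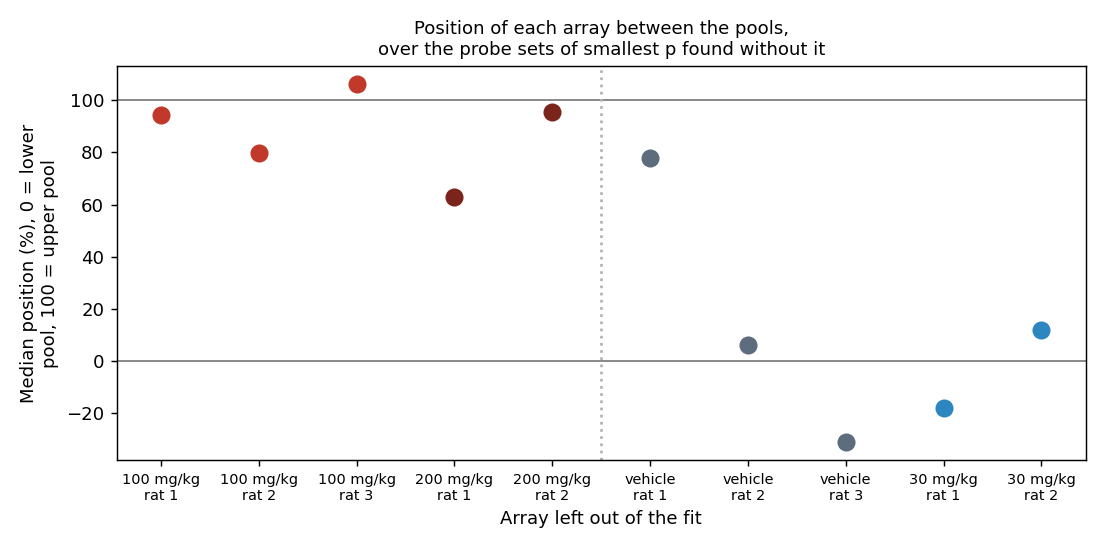
Median position of each array between the lower (0%) and upper (100%) pools over the 883 probe sets of smallest p in a fit that left that array out, with upper doses left of the dotted line. Vehicle rat 1, at 78.0%, lay among the upper arrays (62.9% to 106%), while the other lower arrays lay between -31.2% and 11.9%.

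Single genes differed in whether vehicle rat 1 shared the shift. On the same scale it stood at 95.3% for Gzmb, 88.8% for Gzma, 85.2% for Top1, 83.8% for Tm9sf3, 72.2% for Galnt1, 67.5% for Myl9 and 66.0% for Snap25. It stood at -6.48% for Mmp10, 9.11% for Srxn1, 8.08% for Gsta1, 10.6% for Pde4a, -13.7% for Ccnjl and -58.2% for Cyp26b1, that is, with the other lower arrays or beyond them. Ccnjl and Cyp26b1 were named for a small p in the fit with the smooth muscle score. That fit favours genes in which vehicle rat 1 does not follow the upper doses, so their positions were partly set by the choice. Of the probe sets called without that rat, 6.17% of those higher and 8.42% of those lower had it under 25%. The upper arrays with the highest liver score, 100 mg/kg rat 1 and 200 mg/kg rat 1, stood at 0.65 and 0.62, while vehicle rat 1 reached 1.39, above all other arrays, and the rest were at -0.04 or below. With the liver score as a covariate 1330 probe sets were called. The part of muscle wall, nerve, fat and liver transcripts in each gene's difference was not tested beyond these values.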

How the data were processed

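Jejunum of 10 rats was hybridised to Affymetrix RAE230 2.0 arrays, 1 array per rat. The deposited value table holds log10 intensities, a unit read from its values, which the authors made in Rosetta Resolver with its error model. Probe summary, background correction and scaling between arrays were not given in the sources used here. The second deposited table holds the authors' own fold changes and was not used. An array has no depth, so the number of arrays limits the precision. The p-values measure the spread between rats, which in the pooled test also holds the differences between the groups within a pool.

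The deposited log10 values were converted to log2. Probe sets in the lowest 40% by mean were dropped (11823), blanks were left missing (271 probe sets kept had one) and 25 could not be tested. Means of the upper and lower doses were fitted with limma 3.58.1 in R 4.3.3 (lmFit, eBayes, prior SD 0.226, prior degrees of freedom 2.77), with two-sided p-values adjusted by Benjamini-Hochberg across every tested probe set and calls at up to 0.05. Means of 100 mg/kg, 200 mg/kg and the lower doses were fitted for the single doses, and means of the 4 groups for comparisons between them. Errors of differences are moderated standard errors. Platform annotation gave 1 gene to 19952 probe sets, several to 428 and none to 9179, and no gene was named from several; 19886 were found in the reference gene table. A list's gene is its brightest probe set, and a score is the mean over a list of the differences from the lower-pool mean. Promoters were searched in Python 3.11.15 with pandas 2.3.3, and matplotlib 3.10.9 drew the plots.

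The pools, the 38 gene lists and the rules were chosen with earlier results of these data known. Named genes were Cyp1a1, Cyp1a2, Cyp1b1, Ahr, Ahrr, Tiparp, Nqo1, Abcc2 and Abcc3, the 15 largest differences per direction among called probe sets with 10 values, no overlap of pools and 1 gene, the 8 smallest p per direction with the smooth muscle score over all tested probe sets, and, beyond that rule and after values were seen, the 8 among probe sets called without it, the 4 smallest p of a list, and the 4 per direction between 200 and 100 mg/kg. Other genes of a list were named for their role after their values were seen. Rat numbers did not pair the rats, which were different animals (correlations of deviations from -0.31 to 0.24 over 13 same-numbered pairs, 4 above 0.1). The fit was tested on simulated data before use. Alternatives covered the filter, normalization, blanks, pseudocount, group means, vehicle alone as control, array weights, trended and robust moderation, covariates, the replicate block, the methods' t-test and each array left out.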

Additional observations from a re-analysis of the deposited data

Results flagged for a closer look

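Among 240 sets of 5 arrays checked, of the named genes and scores within each pool, 26 had 1 array far from the other 4. The genes were named from these same values and share the arrays, so this count has no chance rate to be set against. In the upper pool 200 mg/kg rat 1 was the outlying array for the smooth muscle score (-0.57, others -0.95 to -0.89), for Myl9 (10.43, others 9.82 to 9.94) for Cav1 (7.26, others 7.53 to 7.60), for Adpgk (6.08, others 5.12 to 5.34) and for Papola (8.57, others 8.12 to 8.21). Snap25 was low in 100 mg/kg rat 3 (4.71, others 5.27 to 5.43), Stmn2 was low in 200 mg/kg rat 2 (5.44, others 5.77 to 5.90) and Lum was high in 100 mg/kg rat 2 (9.13, others 8.87 to 8.93).

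In the lower pool vehicle rat 1 was the outlying array in 14 of these sets. It was high for Usp49 (7.05, others 6.36 to 6.49), Tc2n (7.65, others 6.68 to 6.93) and Sc5d (8.72, others 7.82 to 7.96). It was low for Speg (5.33), Nipsnap2 (5.69), Myl9 (10.44), Dcn (9.44), Ube3al1 (5.91) and Nfic (5.00). In all of these but Ube3al1 that was the side of the upper doses. It was also low for Chic1 (3.21, others 5.36 to 5.73), Adpgk (4.37, others 5.93 to 6.30), Papola (7.31, others 7.93 to 8.09) and Ncor1 (6.96, others 8.09 to 8.49) and high for RT1-CE10 (10.86, others 9.07 to 9.45). These genes, Ube3al1 and Nfic were named for a small p in the fit with the smooth muscle score. That choice depends in part on vehicle rat 1, whose score lay far from its pool's mean. Vehicle rat 3 was low for Slk (4.24, others 5.53 to 5.84) and Nav2 (5.80, others 6.06 to 6.10), and 30 mg/kg rat 2 was low for Fcgbp (10.36, others 11.25 to 11.50) and high for Fabp4 (9.51, others 7.46 to 8.03).

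The effect against the lower doses differed between the upper doses in 6 named genes, by limma's test of 200 against 100 mg/kg with Benjamini-Hochberg adjustment. Gpx2, Reg1a and Slc16a10 were higher at 200 than at 100 mg/kg, by 1.87, 2.38 and 1.82 on the log2 scale. Slc25a42, Snx33 and Mpeg1 were lower, at -2.23, -1.74 and -1.93.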

How the results depend on the processing

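Directions changed less than calls, but the choice of genes fixed part of this. Of 76 named probe sets called, none changed sign in any alternative without the smooth muscle score. Many were named because every upper array lay beyond every lower array. For these, leaving out an array, group means or vehicle alone cannot turn the sign. The number of calls over all probe sets ran between 0 and 4799. For the pooled doses, no filter and vehicle alone as control gave 0 calls, 0 higher and 0 lower. Group means gave 551 (204 higher, 347 lower), array weights 4799 (2495 and 2304, 48.0% lower against 63.1% with the settings of the report), the brush border score 36 (8 and 28, 77.8% lower) and the liver score 1330 (613 higher). Leaving out the lowest 60%, adding 16 to the intensity, and trended and robust moderation gave 495, 502 and 508 higher. The methods' t-test gave 4595 unadjusted (2270 and 2325) and 327 after Benjamini-Hochberg (87 and 240). The smooth muscle score gave 0, also without vehicle rat 1, and leaving out vehicle rat 1 and 200 mg/kg rat 1 gave 4110 (2013 and 2097, 51.0% lower). These last 2 settings were chosen after seeing the data. With each array left out in turn the calls ran from 0 to 3643, the higher ones from 0 to 1816, the lower ones from 0 to 1827, and the share lower from 50.2% to 89.1% where any was called. The cause of these shifts was not tested.

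For 100 mg/kg against the lower doses (311 calls), the counts were 6 with no filter, 2 with vehicle alone, 4446 with array weights, 0 with the smooth muscle score with and without vehicle rat 1, 2 and 714 with the brush border and liver scores, 3165 without both arrays, 3842 and 0 by the t-test unadjusted and adjusted, and 1 to 3136 with 1 array left out. For 200 mg/kg (9 calls) they were 79 without the lowest 60%, 27 with low values at the 10th percentile, 42 with 16 added, 4 with vehicle alone, 187 with weights, 49 with trended moderation, 0 with the smooth muscle score in both fits, 29 and 45 with the brush border and liver scores, 520 without both arrays, 2022 and 0 by the t-test, and 1 to 1173 with 1 array left out. For 200 against 100 mg/kg (8 calls) they were 4 with group means, vehicle alone or the liver score, 1 with the smooth muscle score in both fits, 2 with the brush border score, 1500 and 0 by the t-test, and 1 to 15 with 1 array left out. For 30 mg/kg against vehicle (2 calls) they were 1 with array weights or the replicate block, 619 and 0 by the t-test, 0 to 2 with 1 array left out, and 0 in the other settings that moved the count.

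The rat numbers were not used to pair the rats, since same-numbered arrays shared no consistent deviation over the probe sets as a whole. The liver score did follow the number in part. It was 1.39, 0.65 and 0.62 on rat 1 of vehicle, 100 mg/kg and 200 mg/kg, above all other arrays, and -0.07 on 30 mg/kg rat 1. What the rat numbers share was not tested. The replicate block by rat number gave 285 pooled calls (85 higher, 200 lower, 70.2% lower), 1 and 3 for 100 and 200 mg/kg against the lower doses, 1 for 200 against 100 mg/kg and 1 for 30 mg/kg against vehicle.

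The smooth muscle score difference ran from -0.99 to -0.78 with 1 array left out. The correlation of the differences of 100 mg/kg from vehicle and of 200 from 30 mg/kg ran from 0.35 to 0.59 with 1 array left out, and was 0.23 with no filter, 0.41 with the brush border score, and 0.96 and 0.97 with the smooth muscle score with and without vehicle rat 1, where both differences contain the same fitted slope. With that score 8 called genes turned sign, Tm9sf3 (-0.067), Gzma (-0.10), Top1 (-0.046), Gzmb (-0.12), Bcas1 (-0.059), Scg2 (0.34), Mcm6 (0.18) and Kcnma1 (0.048). With the score and without vehicle rat 1, 14 did, Carmil1 (-0.068), Ube3al1 (-0.053), Sptbn1 (-0.11), Osbpl5 (0.033), Popdc2 (0.51), Poldip3 (1.32), Trpc2 (0.32), Jchain (-0.64), Scg2 (0.86), Srxn1 (-0.0355), Ces2c (-0.52), Etfdh (-0.14), Mcm6 (1.00) and Pln (0.51). Chic1, not called at 0.07, was called lower at -0.56 without vehicle rat 1 and 200 mg/kg rat 1. The number of arrays, 5 a pool and 2 at 200 mg/kg, limits the precision.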
